A study of Mus musculus with 9 samples.

Results

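The oxidative phosphorylation genes were examined in myotubes of C2C12, a line of mouse muscle precursor cells that fuse when differentiation is induced, after knockdown of single splice isoforms of the histone variant macroH2A1. The members were the protein-coding genes of GENCODE M21 whose symbols name subunits of the respiratory complexes I to IV and of the ATP synthase, complex V. They numbered 107 of 52780 genes, 94 encoded in the nucleus and 13 in the mitochondrial genome. The choice rests on symbols alone, so the nuclear genes named for complex I (46 genes) include 8 assembly factors (Ndufaf1 to Ndufaf8) and Ndufa4, which is now counted with complex IV. The others were 4 genes of complex II, 8 of complex III, 18 of complex IV and 18 of complex V. The symbol Atp5o is carried by 2 overlapping gene models, and both were kept.

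Poly(A)-selected RNA from day 4 of differentiation was sequenced in 9 samples, 3 per condition. Cells of the first condition, si Ctrl, were the control cells, which the labels call wild type. The study lists a scrambled control siRNA and gives 10 nM for all its siRNAs. That the controls received it is taken from the study, since their titles do not name it. In the other conditions an siRNA at 10 nM was directed against macroH2A1.1 (si mH2A1.1) or macroH2A1.2 (si mH2A1.2). Samples held 36924252 to 42223108 counts. The study describes the 3 samples of a condition as independent biological replicates.

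In oxidative phosphorylation, complexes I and II pass electrons from NADH and succinate through complex III and cytochrome c to complex IV, which reduces oxygen. Complexes I, III and IV pump protons, and complex V uses the gradient to make ATP. Subunits of complexes I, III, IV and V come from both genomes, whereas complex II is encoded by nuclear genes alone. Muscle has its own forms of some complex IV subunits, and differentiating muscle cells are known to gain mitochondria. Transcription factors such as NRF1, GABPA, ERRα and YY1 are known to act on nuclear genes of the pathway. MacroH2A1.1 binds and inhibits PARP1, an NAD+-consuming enzyme, which is the known link from this histone variant to mitochondrial respiration.

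Short stretches of promoter are shown for members that lead the comparisons below, since the genes are described as a group. RefSeq promoters (GRCm38.p6, 250 bases before to 50 after the start) were found for 74 of the 94 nuclear genes and searched on both strands. Capitals mark the motif, and the stretches read along the gene's strand.
Atp5g3, ERR half-site, chr2:73911360-73911389, minus strand: ttgttacaaagTGACCTTGAgcgtcttccc
Ndufs6, NRF1 core, chr13:73328479-73328508, minus strand: cgactgctgtgCGCCTGCGCcggcacttgg
Uqcr11, NRF1 core, chr10:80406808-80406837, minus strand: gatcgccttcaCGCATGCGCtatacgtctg
Sdha, NRF1 core, chr13:74350277-74350306, minus strand: aggggcgtgttGCGCAGGCGcagaatcttc
Sdhb, ETS motif, chr4:140961265-140961294, plus strand: ggctcggagaaaCCGGAAGcggccttccac
Uqcrh, ETS motif, chr4:116075063-116075092, minus strand: gagtatgccgcaCTTCCGGccaggtcgccg

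The NRF1 core (GCGCANGCG) was found in 21 of the 74 promoters (28.4%) against 6.47% of all 27025 promoters. The ETS motif of GABPA (CCGGAAG) was found in 17 (23.0% against 9.12%), the YY1 motif (ATGGCGGC) in 7 (9.46% against 2.38%) and the ERR half-site (TCAAGGTCA) in 2, Sdhd and Atp5g3 (2.70% against 0.407%). The NRF1 core can overlap itself on the opposite strand, and the YY1 letters hold a start codon, ATG. These are matches of letters, not sites of binding. No match to any of these motifs was found in the windows of Ndufa1, Cox5a, Cox7a1, Cox8b, Atp5b, Ndufb8 and Atp5g1.

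The targeted gene, H2afy (ENSMUSG00000015937), encodes both isoforms, and its counts are not split by isoform. The controls were at 56.3, 62.4 and 61.0 CPM (counts scaled to library size), the si mH2A1.1 samples at 38.8, 30.0 and 30.9 CPM, and the si mH2A1.2 samples at 46.8, 47.2 and 43.2 CPM, so no knockdown sample reached the lowest control. H2afy fell by 0.85 on the log2 scale after si mH2A1.1 (edgeR adjusted p = 0.00331). After si mH2A1.2 the value was -0.39, which did not pass the test (adjusted p = 0.108).

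Levels of the members were compared per exon length, in TPM (counts divided by exon length and scaled to a common total), as means over the 9 samples. The mitochondrially encoded genes ranged from 726 TPM for mt-Nd3 to 24669 TPM for mt-Co1, with a median of 7954 TPM. The nuclear genes ranged from 0.0164 TPM for Cox8c to 1016 TPM for Atp5b, the catalytic β subunit of complex V, with a median of 102 TPM. The nuclear gene with the highest level was Ndufb9 in complex I (346 TPM), Sdhd in complex II (235 TPM), Uqcr11 in complex III (302 TPM) and Cox6b1 in complex IV (527 TPM). Cox4i2, Cox6b2, Cox7b2 and Cox8c, complex IV genes known for restricted expression, did not pass the filter on low counts, which left 103 members tested, 90 of them nuclear.

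In the median, nuclear genes lay on opposite sides of the control level in the 2 knockdowns. The median of the 90 log2 fold changes was 0.14 for si mH2A1.1, but -0.24 for si mH2A1.2, both against si Ctrl, and 0.41 for si mH2A1.1 against si mH2A1.2. The medians over all 19545 genes tested were -0.0091, -8.3e-05 and -0.0091. The mean level was highest with si mH2A1.1, intermediate with si Ctrl and lowest with si mH2A1.2 for 65 of the 90 genes. How many of all genes had this order was not counted. The comparisons share samples, and these medians carry no test. In bulk samples, fewer cells of a type and less RNA per cell cannot be told apart.

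Single samples showed how far the conditions stood apart. The median deviation of the nuclear genes from their si Ctrl mean was -0.13, -0.01 and 0.12 (log2) in si Ctrl replicates 1, 2 and 3. It was 0.30, 0.07 and 0.07 after si mH2A1.1, and -0.39, -0.25 and -0.07 after si mH2A1.2. All si mH2A1.1 samples lay above all si mH2A1.2 samples, while both knockdowns overlapped the controls. Within a condition the genes kept an order of samples: si mH2A1.1 replicate 1 was the highest of its condition for 76 of 90 genes, si Ctrl replicate 3 for 72 and si mH2A1.2 replicate 3 for 79. The members thus do not vary independently of one another, and a count of members is not a count of separate observations.

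**Figure D1:**
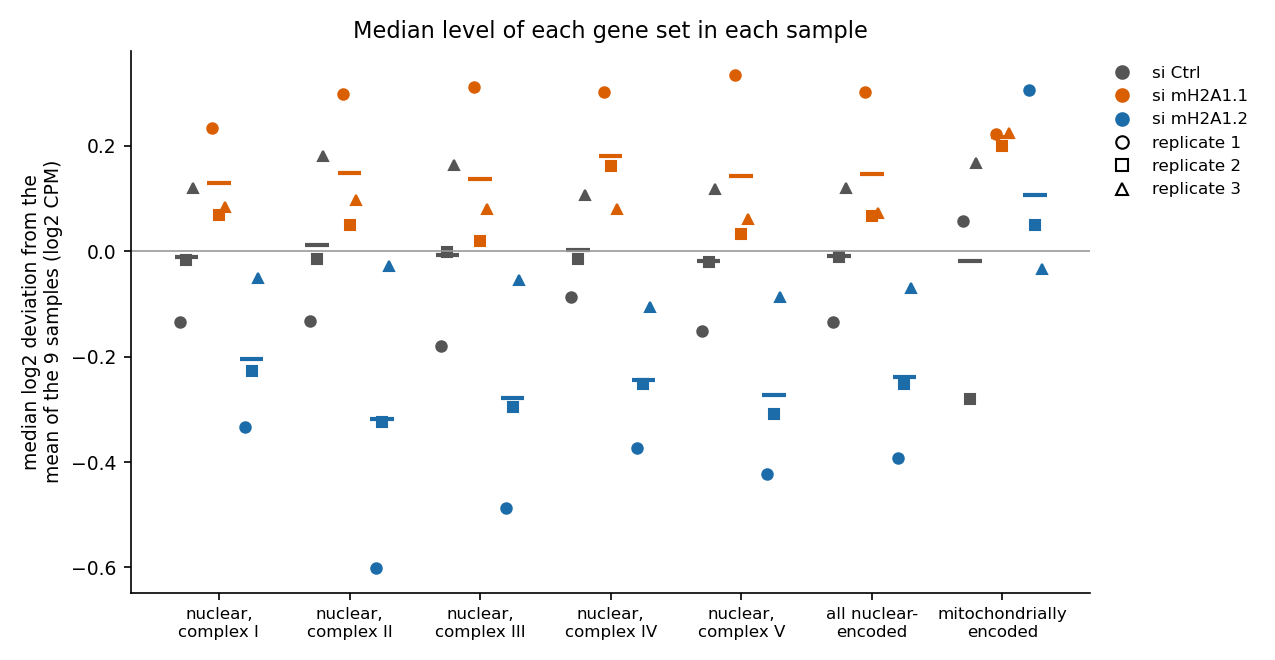
Each point is 1 sample, the median over a gene set of the log2 CPM deviation from the si Ctrl mean. Colours stand for the conditions, symbols for the replicates and bars for the means of the condition. The axis label names the mean of the 9 samples, but the zero line is the si Ctrl mean. For each nuclear set the 3 si mH2A1.1 samples lie above the 3 si mH2A1.2 samples, which is not so for the mitochondrially encoded genes.

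Samples of si Ctrl and si mH2A1.2 with the same replicate number deviated together across all genes. Within these pairs, the median of the nuclear genes was lower with si mH2A1.2 by 0.26, 0.24 and 0.19 (log2 differences of -0.26, -0.24 and -0.19, mean -0.23 ± 0.04, SD, n = 3 pairs). In all 3 pairs, 74 of the 90 nuclear genes were lower with si mH2A1.2, and 1 was higher. Of all genes tested, 25.6% were lower in every pair. Of the 13 mitochondrially encoded genes, 0 were lower and 0 were higher in every pair, and their median differed by 0.25, 0.33 and -0.20.

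The comparison of si mH2A1.1 with si mH2A1.2 separated the nuclear genes most. At an adjusted p below 0.05 (edgeR quasi-likelihood test, adjusted over all genes tested), 41 of the 90 were higher with si mH2A1.1 and 1, Uqcrh, was lower. Over all genes tested, 12.0% were called higher and 10.5% lower. For 62 of the 90, every si mH2A1.1 sample lay above every si mH2A1.2 sample, against 20.3% of all genes. The count of members called in this comparison, 43 with mt-Nd6 included, was 18 without si mH2A1.1 replicate 1, 16 without si mH2A1.2 replicate 2 and 25 without si mH2A1.2 replicate 1. In the first 2 of these omissions, 6.43% and 6.04% of all genes were called higher.

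Each complex had members called higher with si mH2A1.1 than with si mH2A1.2. They numbered 19 of 46 in complex I, 2 of 4 in complex II, 3 of 8 in complex III, 9 of 14 in complex IV and 8 of 18 in complex V. The medians of the log2 fold changes were 0.36, 0.45, 0.47, 0.45 and 0.37, in the same order. Summed over its nuclear genes, complex V differed most, from 3147 ± 451 CPM with si mH2A1.2 to 4570 ± 490 CPM with si mH2A1.1 (SD, n = 3), with 3847 ± 437 CPM in si Ctrl. Of these sums, Atp5b alone held 1194, 1970 and 1506 CPM (means), in the same order of conditions. The sums in complex I, in the same order of conditions, were 2265 ± 251, 2836 ± 212 and 2624 ± 296 CPM. No difference between complexes was tested.

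**Figure D2:**
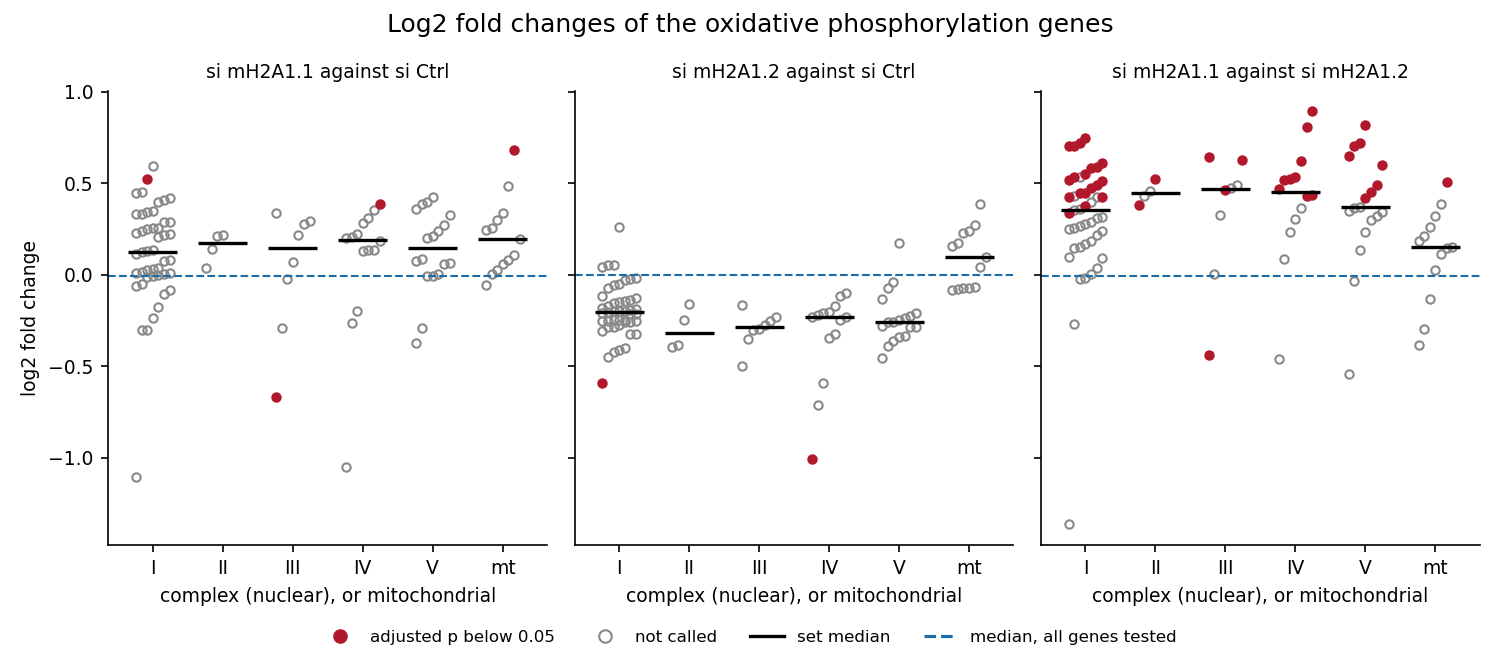
Log2 fold changes of each member in the 3 comparisons, for nuclear genes by complex and for mitochondrially encoded genes (mt), with red points for adjusted p below 0.05, solid bars for set medians and a dashed line for the median of all genes tested. Nuclear genes sit mostly above the line for si mH2A1.1 against si mH2A1.2 (82 of 90 positive) and below it for si mH2A1.2 against si Ctrl (85 of 90 negative).

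In complex I, 4 genes were among the 10 largest differences of called nuclear members between the knockdowns. Ndufa1 (ENSMUSG00000016427, chromosome X), a small accessory subunit of the membrane arm, was at 24.4, 23.5 and 23.1 CPM in the controls, 36.6, 31.6 and 33.6 CPM after si mH2A1.1 and 19.5, 20.2 and 22.8 CPM after si mH2A1.2. The 3 conditions did not overlap. Ndufa1 rose with si mH2A1.1 against si Ctrl (log2 fold change 0.52, standard error 0.10, adjusted p = 0.0132), and it was higher than with si mH2A1.2 by 0.71 (adjusted p = 0.00148), or 1.63-fold. For si mH2A1.2 against si Ctrl the log2 value was -0.18 (adjusted p = 0.426). The call against si Ctrl was lost without si Ctrl replicate 2 (adjusted p = 0.0564) or replicate 3 (adjusted p = 0.0517).

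Ndufb8, another membrane-arm subunit, was at 126, 101 and 116 CPM with si mH2A1.1 and at 66.2, 65.4 and 79.1 CPM with si mH2A1.2 (log2 fold change 0.70, adjusted p = 0.00534). All si mH2A1.1 samples also exceeded the controls, at 73.5, 79.9 and 97.5 CPM, without passing the test (adjusted p = 0.0521). The remaining 2 were assembly factors of lower level, Ndufaf6 (log2 fold change 0.75, adjusted p = 0.0201) and Ndufaf5 (0.72, adjusted p = 0.0132). The Ndufaf6 call was lost without si mH2A1.1 replicate 1 (adjusted p = 0.072), si mH2A1.2 replicate 1 (0.0522) or si mH2A1.2 replicate 2 (0.0802), and the Ndufaf5 call without si mH2A1.2 replicate 2 (0.0569). Of the 8 Ndufaf genes, 3 were called higher with si mH2A1.1 than with si mH2A1.2, and 0 were called in the comparisons with si Ctrl. Ndufb9, the nuclear complex I gene of the highest level, was at 139 to 151 CPM with si mH2A1.1 and 102 to 127 CPM with si mH2A1.2, and differed by 0.38 (adjusted p = 0.0315), a call lost in 5 of 9 omissions of a single sample.

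Ndufs6 (ENSMUSG00000021606, chromosome 13), an accessory subunit beside the NADH-oxidising part of complex I, stood out for its fall with si mH2A1.2. It was at 28.2, 29.3 and 33.4 CPM in the controls, 33.2, 30.0 and 28.9 CPM after si mH2A1.1 and 17.1, 20.9 and 22.3 CPM after si mH2A1.2. The si mH2A1.2 samples lay below all others. Ndufs6 fell by 0.59 on the log2 scale after si mH2A1.2 (adjusted p = 0.039, standard error 0.12), and the value was 0.02 for si mH2A1.1 (adjusted p = 0.939), both against si Ctrl. The call was lost in 8 of 9 omissions of a single sample, with adjusted p from 0.0525 to 0.123, and held without si mH2A1.1 replicate 1. Against si mH2A1.1 the difference of 0.61 held in 9 of 9.

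The 4 subunits of complex II, all nuclear, had positive log2 fold changes of si mH2A1.1 against si mH2A1.2. Sdhb, the iron-sulfur subunit, was at 102, 83.3 and 81.8 CPM with si mH2A1.1 and at 56.3, 62.7 and 66.4 CPM with si mH2A1.2 (0.53, adjusted p = 0.00769). The controls, at 78.1, 79.3 and 84.6 CPM, lay above si mH2A1.2 and overlapped si mH2A1.1. Sdha, the flavoprotein that oxidises succinate, differed by 0.38 (adjusted p = 0.0389), a call held in 4 of 9 omissions of a single sample. The membrane anchors Sdhc (0.43, adjusted p = 0.141) and Sdhd (0.46, adjusted p = 0.102) had differences of the same size with wider spread, and neither passed the test.

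In complex III, Uqcr11, a small subunit, was at 99.3, 79.4 and 76.4 CPM with si mH2A1.1 and at 55.2, 52.2 and 57.6 CPM with si mH2A1.2 (log2 fold change 0.63, adjusted p = 0.00473). The controls, at 66.2, 67.6 and 77.1 CPM, lay above si mH2A1.2 and overlapped si mH2A1.1. Uqcrh (ENSMUSG00000063882, chromosome 4), the hinge protein beside cytochrome c1, went the other way. It was at 144, 161 and 175 CPM in the controls, 106, 103 and 91.9 CPM after si mH2A1.1 and 113, 138 and 158 CPM after si mH2A1.2. The si mH2A1.1 samples were the lowest 3 of the 9.

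Uqcrh was the 1 member called lower with si mH2A1.1 in both comparisons, by 0.67 on the log2 scale against si Ctrl (log2 fold change -0.67, standard error 0.13, adjusted p = 0.0145) and by 0.44 against si mH2A1.2 (-0.44, adjusted p = 0.0386). Against si Ctrl the call was lost without si Ctrl replicate 2 (adjusted p = 0.0537), si Ctrl replicate 3 (0.0504) or si mH2A1.1 replicate 3 (0.0645). Against si mH2A1.2 it held in 3 of 9 omissions of a single sample, with adjusted p up to 0.129. Both comparisons use the same si mH2A1.1 samples.

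Complex IV had the highest share of tested members called higher with si mH2A1.1 than with si mH2A1.2, 9 of 14. Cox5a (ENSMUSG00000000088, chromosome 9), a matrix-side subunit, was at 83.5, 85.3 and 89.0 CPM in the controls, 125, 103 and 109 CPM after si mH2A1.1 and 65.4, 72.9 and 80.9 CPM after si mH2A1.2, with no overlap of conditions. Cox5a rose with si mH2A1.1 against si Ctrl by 0.39 (standard error 0.11, adjusted p = 0.0431), a call lost with no filter on low counts (adjusted p = 0.063) and in 6 of 9 omissions of a single sample. These were any 1 control, si mH2A1.1 replicate 1 or 3, and si mH2A1.2 replicate 2, with adjusted p from 0.0671 to 0.131. The difference from si mH2A1.2 of 0.62 (adjusted p = 0.00345) held in 9 of 9. Cox6b1 (0.53, adjusted p = 0.00709) and Cox4i1 (0.43, adjusted p = 0.0152), both used in most tissues, were also higher, the latter not without si mH2A1.2 replicate 2 (0.0612).

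The genes that muscle uses in place of the ubiquitous subunits, Cox8b, Cox7a1 and Cox6a2, each had all si mH2A1.2 samples below all controls, and 1 of them passed the test. After si mH2A1.1, Cox6a2 lay below the controls, and Cox8b and Cox7a1 overlapped them. Lying below all controls with si mH2A1.2 was not particular to the muscle forms. It held for 9 of the 14 complex IV genes tested, the ubiquitous Cox8a and Cox7a2 among them, and for 2108 of all 19545 genes tested. Cox8b (ENSMUSG00000025488, chromosome 7) was at 12.7, 13.5 and 17.6 CPM in the controls, 11.6, 12.4 and 14.1 CPM after si mH2A1.1 and 7.52, 5.79 and 8.49 CPM after si mH2A1.2. It fell with si mH2A1.2 to 0.498 of si Ctrl (log2 fold change -1.01, standard error 0.18, adjusted p = 0.0235), the largest called change of a member against si Ctrl. The call was lost without si Ctrl replicate 1 (adjusted p = 0.0578), si Ctrl replicate 3 (0.0753), si mH2A1.2 replicate 1 (0.0654) or si mH2A1.2 replicate 2 (0.077).

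Cox7a1, a second muscle form, was a gene of low level, at 2.44 ± 0.24 CPM in the controls, 2.77 ± 0.731 CPM after si mH2A1.1 and 1.49 ± 0.322 CPM after si mH2A1.2 (SD, n = 3). It was higher with si mH2A1.1 than with si mH2A1.2 by 0.89 (standard error 0.25, adjusted p = 0.0297), the largest called difference of a member in that comparison, held in 5 of 9 omissions of a single sample. The Cox7a1 value for si mH2A1.2 against si Ctrl was -0.71 (log2, adjusted p = 0.198). Cox6a2, the third muscle form, was at 54.6, 50.9 and 71.5 CPM in the controls, 14.8, 43.4 and 27.2 CPM after si mH2A1.1 and 35.3, 36.4 and 45.7 CPM after si mH2A1.2. All knockdown samples lay below all controls. Its log2 fold changes were -1.05 (adjusted p = 0.0537) and -0.59 (adjusted p = 0.388), and neither passed the test.

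**Figure D3:**
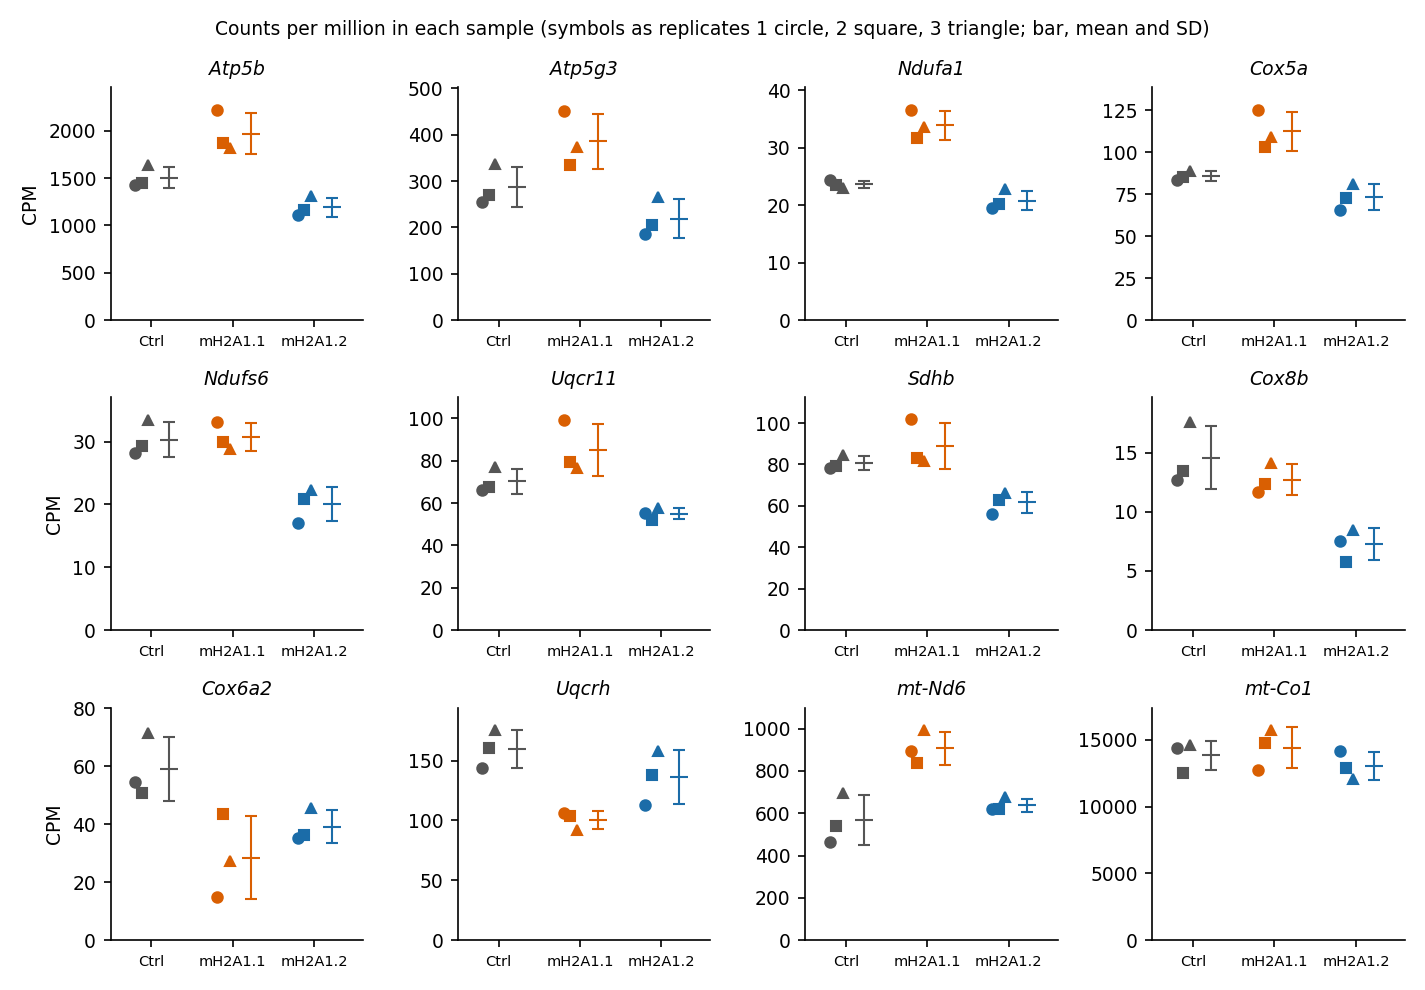
CPM of 12 members in each sample, with symbols for the replicates and bars for the mean and SD of the 3 samples. Ndufa1 and Cox5a have 3 conditions without overlap, Ndufs6 and Cox8b are low with si mH2A1.2, and Uqcrh and Cox6a2 have their lowest values with si mH2A1.1.

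Shares within a subunit family were taken as percent of the family's TPM, with pseudogene copies left out. Cox6a2 made up 37.5% ± 3.82 of Cox6a1 and Cox6a2 with si Ctrl (SD, n = 3), 18.7% ± 9.22 after si mH2A1.1, and 30.3% ± 4.19 after si mH2A1.2. The si mH2A1.1 samples, at 9.07%, 27.4% and 19.7%, lay below the controls, at 34.3% to 41.7%. Cox8b made up 21.2% ± 2.18, 17.8% ± 2.78 and 13.8% ± 2.86 of the Cox8 genes, and si mH2A1.2 lay below the controls. With 3 samples against 3, an exact permutation test cannot go below p = 0.1, so these shares were not tested.

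In the Cox7a family, Cox7a1 made up 2.29% ± 0.367, 2.69% ± 0.871 and 1.75% ± 0.265, given for the controls first, then si mH2A1.1, then si mH2A1.2. Cox7a2l, known for joining complexes III and IV into supercomplexes, made up 55.1% ± 1.1, 47.2% ± 1.55 and 54.7% ± 3.15, and Cox7a2 the remainder. The si mH2A1.1 samples were the lowest for Cox7a2l. Cox4i2, Cox6b2, Cox7b2 and Cox8c made up at most 0.107%, 0.0511%, 0.555% and 0.025% of their families in any sample, and Ndufa4l2 at most 1.79% of Ndufa4 and Ndufa4l2. Ndufa4l2, known as a hypoxia-induced gene, was at 1.21 CPM or lower in every sample.

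**Figure D4:**
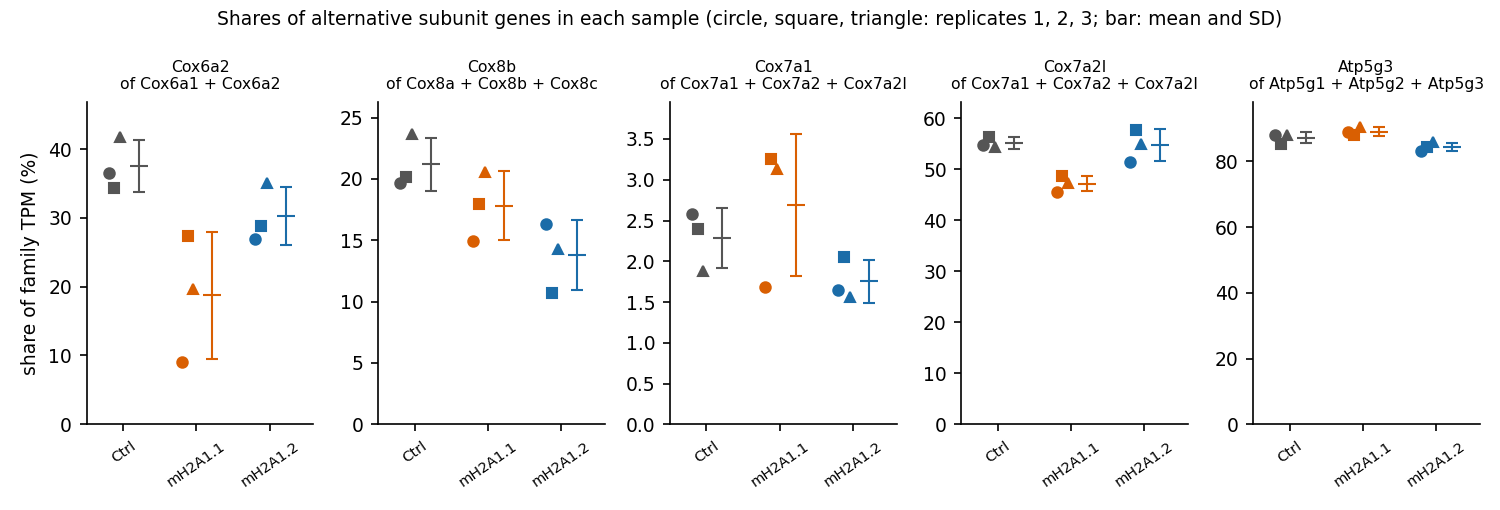
Share of a gene in the summed TPM of its subunit family, in percent, for each sample, with symbols for the replicates and bars for the mean and SD. Pseudogene copies are left out of the families. Cox6a2 and Cox7a2l have their lowest means with si mH2A1.1 (18.7% and 47.2%), and Cox8b and Cox7a1 with si mH2A1.2 (13.8% and 1.75%).

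Complex V held 4 of the 10 largest differences of called nuclear members between the knockdowns. Atp5b was at 1430, 1450 and 1638 CPM in the controls, 2219, 1870 and 1822 CPM after si mH2A1.1 and 1116, 1160 and 1307 CPM after si mH2A1.2. The conditions did not overlap, and Atp5b differed between the knockdowns by 0.72 (standard error 0.13, adjusted p = 0.00427), or 1.65-fold. Against si Ctrl its log2 fold changes were 0.39 (adjusted p = 0.0772) and -0.33 (adjusted p = 0.234). Atp5f1, of the peripheral stalk, was higher with si mH2A1.1 than with si mH2A1.2 by 0.70 (adjusted p = 0.00907).

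Subunit c, which forms the rotating ring, is encoded by 3 genes with the same mature protein. Atp5g3 was at 255, 270 and 337 CPM in the controls, 451, 334 and 374 CPM after si mH2A1.1 and 186, 206 and 265 CPM after si mH2A1.2. It differed between the knockdowns by 0.82 (standard error 0.17, adjusted p = 0.00804), or 1.76-fold, and made up 89.1% ± 1.28 of the family's TPM after si mH2A1.1, against 84.4% ± 1.32 after si mH2A1.2. Atp5g1 was higher by 0.65 (adjusted p = 0.0207), a call lost without si mH2A1.1 replicate 1 (0.0661), si mH2A1.2 replicate 1 (0.0529) or si mH2A1.2 replicate 2 (0.0771). Atp5g2 had a log2 fold change of -0.54 (adjusted p = 0.0782), and between 91.8% and 95.8% of the counts of Atp5g2 and its pseudogene Gm10175 were on the pseudogene. With those counts added to the gene, the difference was -0.02 (adjusted p = 0.907). For Atp5g1, the pseudogene Gm10039 took between 38.8% and 45.0% of the summed counts. The family shares leave out both pseudogenes, so the share of Atp5g3 depended on which gene the reads were given to.

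At the same threshold, calls on 11 named nuclear genes in the comparison of the knockdowns held under all 19 alternative fits and omissions, Atp5b, Atp5f1, Atp5g3, Cox5a, Cox6b1, Cox8b, Ndufa1, Ndufb8, Ndufs6, Sdhb and Uqcr11. The highest adjusted p among them was 0.043, for Cox8b. At a stricter threshold, an adjusted p below 0.01 with a log2 change of 0.8 or more, 1 of the 43 calls on members was left.

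Against si Ctrl, few members were called. With si mH2A1.1, 3 of 103 members were higher (Ndufa1, Cox5a and mt-Nd6) and 1, Uqcrh, was lower, against 6.18% and 4.93% of all genes. Of the 90 nuclear genes, 68 had a positive log2 fold change, against 9603 of all 19545 genes tested. The 4 calls became 2 without si Ctrl replicate 1 or without si mH2A1.1 replicate 1, 1 without si mH2A1.1 replicate 3, and 10 without si mH2A1.1 replicate 2. In the last of these omissions, 8.18% of all genes were called higher and 6.39% lower. Without si Ctrl replicate 2, edgeR called 0 members, and 16 had an unadjusted p below 0.05. With all samples, 28 members and 5789 of the 19545 genes had such a p. DESeq2 called 15 members, 13 of them higher, where it called 9.07% of all genes higher and 7.67% lower.

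With si mH2A1.2, 0 members were called higher and 2, Ndufs6 and Cox8b, lower, against 1.37% and 0.982% of all genes. DESeq2 also called 0 higher and called 4 lower, where it called 3.28% and 2.62% of all genes. At an unadjusted p below 0.05 there were 27 of 103 members, against 3109 of all 19545 genes tested. Of the 90 nuclear log2 fold changes 85 were negative, against 9775 of the 19545. The 2 calls became 0 without si Ctrl replicate 1, si Ctrl replicate 3, si mH2A1.2 replicate 1 or si mH2A1.2 replicate 2, and 1 without si Ctrl replicate 2, si mH2A1.2 replicate 3, si mH2A1.1 replicate 2 or si mH2A1.1 replicate 3. Between 8 and 33 members had an unadjusted p below 0.05 where 0 were called. The matching counts over all genes in these omissions were not taken.

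With si mH2A1.1 against si Ctrl, 12 of the 13 mitochondrially encoded genes had a positive log2 fold change (median 0.20), as had most nuclear genes. With si mH2A1.2 against si Ctrl their median was 0.10, while that of the nuclear genes was negative. The difference between the sets was not tested. The mitochondrially encoded genes took 4.42% ± 0.538 of all counts with si Ctrl (SD, n = 3), 5.07% ± 0.068 after si mH2A1.1, and 4.49% ± 0.612 after si mH2A1.2. The nuclear genes took 0.92% ± 0.075, 1.07% ± 0.11 and 0.763% ± 0.095. The ratio of mitochondrially to nuclear-encoded counts was 5.43, 4.18 and 4.83 with si Ctrl, 4.24, 5.01 and 5.02 with si mH2A1.1, and 7.74, 5.57 and 4.70 with si mH2A1.2. The conditions overlapped, with the highest value in si mH2A1.2 replicate 1, without which the mean of that condition was 5.14 in place of 6.00.

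Of the 13 genes, mt-Nd6 was the 1 called. It encodes a membrane subunit of complex I and lies on the minus strand of the mitochondrial genome (positions 13552 to 14070), opposite the other 12. It was at 465, 538 and 697 CPM in the controls, 895, 836 and 991 CPM after si mH2A1.1 and 618, 620 and 674 CPM after si mH2A1.2. The si mH2A1.1 samples were the highest 3. The log2 fold change was 0.68 against si Ctrl (adjusted p = 0.0213) and 0.51 against si mH2A1.2 (adjusted p = 0.0351), each with a standard error of 0.15. The calls held in 5 and 4 of 9 omissions of a single sample. The first was lost without si Ctrl replicate 1 (adjusted p = 0.0531), si Ctrl replicate 2 (0.0858), si mH2A1.1 replicate 1 (0.0571) or si mH2A1.1 replicate 3 (0.0796).

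The use of strand in the counting is not given in the sources used here, so reads from mt-Nd6 and from RNA of the opposite strand cannot be told apart. The gene overlaps the end of mt-Nd5 (11742 to 13565), which was at 1730, 1868 and 2516 CPM in the controls, 2495, 2803 and 3253 CPM after si mH2A1.1 and 2098, 2158 and 2296 CPM after si mH2A1.2. Its log2 fold changes were 0.48 (adjusted p = 0.0836) against si Ctrl and 0.38 (adjusted p = 0.123) against si mH2A1.2.

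The other mitochondrial genes of complex I gave log2 fold changes with si mH2A1.1 against si Ctrl of 0.08 for mt-Nd1, 0.24 for mt-Nd2, 0.25 for mt-Nd4 and 0.11 for mt-Nd4l, and with si mH2A1.2 of -0.07, -0.08, 0.04 and -0.07. For mt-Cytb, the mitochondrial subunit of complex III, they were 0.20 and -0.07. The level of mt-Cytb was 6473, 3868 and 5959 CPM in the controls alone, so its spread exceeded these changes. For mt-Atp8 of complex V, which overlaps mt-Atp6, they were 0.30 and 0.27. None of these passed the test, with adjusted p of at least 0.350.

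Near-identical pseudogenes in the nuclear genome took a share of the counts of 5 mitochondrial genes. A block on chromosome 1 (24611535 to 24616197, GRCm38) holds copies of mt-Nd4, mt-Nd4l, mt-Nd3, mt-Co3, mt-Atp6, mt-Co2 and part of mt-Co1. For mt-Atp6, 99.5% of its 50-base windows also occur in the copy Gm10925, which took between 33.8% and 67.9% of the summed counts. The share ranged from 5.85% to 49.3% for mt-Co2, from 65.9% to 81.3% for mt-Nd3, from 25.8% to 30.8% for mt-Co1 and from 0.19% to 9.92% for mt-Co3. It was highest in si mH2A1.1 replicate 3 for mt-Atp6, mt-Co2, mt-Nd3 and mt-Co3. The copies of mt-Nd4 and mt-Nd4l took 0 counts. Pseudogenes of nuclear members took most of the summed counts for Atp5g2, Ndufa12 (85.9% to 89.9%), Cox7c (78.0% to 82.6%), Ndufb4 (75.5% to 79.6%) and Atp5l (55.3% to 58.9%). The levels of these genes therefore depended on how reads were assigned. With the counts of copies added, all 43 members called between the knockdowns were still called, and the count was 44.

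**Figure D5:**
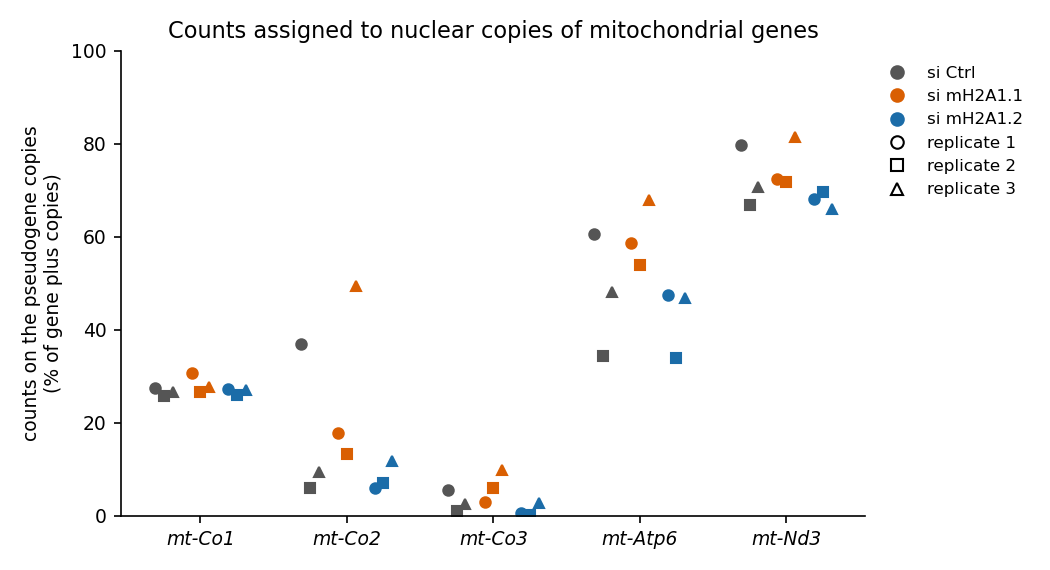
Percent of the counts of a mitochondrially encoded gene and its nuclear pseudogene copies that were assigned to the copies, for each sample. The share varies between samples of 1 condition, from 13.2% to 49.3% for mt-Co2 with si mH2A1.1.

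Without the copies, the log2 fold changes of si mH2A1.1 against si mH2A1.2 were -0.30 for mt-Atp6 (adjusted p = 0.254), -0.13 for mt-Co2, -0.38 for mt-Nd3, 0.14 for mt-Co1 and 0.11 for mt-Co3. With the counts of the copies added to the gene, they were 0.22 for mt-Atp6 (adjusted p = 0.485), 0.21 for mt-Co2, -0.02 for mt-Nd3, 0.17 for mt-Co1 and 0.19 for mt-Co3. The sign for mt-Atp6 and mt-Co2 therefore depended on which of 2 near-identical genes the reads were given to, and no direction is read for either.

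The other genes of the pathway were described by lists, whose counts give called genes of si mH2A1.1 against si mH2A1.2 and whose medians are log2 fold changes. They are to be read against the 12.0% of all genes called higher and 10.5% called lower in this comparison. Of the assembly factors of complex IV, 5 of 23 tested were higher (median 0.23), among them Cox20, which acts on the Cox2 subunit (1.11, adjusted p = 0.00204). Cox14, which acts in the assembly of Cox1, fell with si mH2A1.2 against si Ctrl (-0.77, adjusted p = 0.0138). For the assembly factors of complexes I, II, III and V the counts higher were 0 of 10, 1 of 4, 0 of 6 and 1 of 4, with Sdhaf2 and Tmem70 the called genes, and lists this short cannot be set against the background.

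Cytochrome c and the mitochondrial carriers had 3 of 7 tested genes higher with si mH2A1.1 than with si mH2A1.2 (median 0.37). Ckmt2, the mitochondrial creatine kinase of muscle, was at 1.58, 0.693 and 0.774 CPM in the controls, 43.8, 31.8 and 38.9 CPM after si mH2A1.1 and 0.853, 0.365 and 0.403 CPM after si mH2A1.2. It rose against si Ctrl by 5.23 (standard error 0.34, adjusted p = 0.000167), more than any member. Cycs, cytochrome c itself, rose by 0.70 (adjusted p = 0.0424).

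Pathways that feed the respiratory chain were examined next. Of the tricarboxylic acid cycle genes, 8 of 18 were higher with si mH2A1.1 than with si mH2A1.2 and 0 lower (median 0.35), with Suclg1 at 0.81 (adjusted p = 0.00467). Of the fatty acid oxidation genes, 8 of 16 were higher and 1 lower (median 0.33), with Acadl, an acyl-CoA dehydrogenase, at 1.08 (adjusted p = 0.000401). Of the mitochondrial ribosomal proteins, 22 of 78 were higher and 0 lower (median 0.29), and of the import genes 5 of 15 and 0 (median 0.26).

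Known regulators of mitochondrial biogenesis had 4 of 18 tested genes higher and 1 lower (median 0.06), where 12.0% and 10.5% of all genes were called. The coactivator genes Ppargc1b and Ppargc1a were higher with si mH2A1.1 than with si mH2A1.2, by 0.96 (adjusted p = 0.00554) and 0.93 (adjusted p = 0.0167). Of the genes of mitochondrial transcription and genome maintenance, 3 of 23 were higher and 1 lower (median 0.13), a share of higher genes near the 12.0% of all genes. Of the nuclear members with the NRF1 core in their promoter, 13 of 21 tested were called higher, against 22 of 51 without it. With the ETS motif the counts were 5 of 17 against 30 of 55. These shares were not compared by a test.

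Markers of cell state also differed between the conditions. Of 26 muscle fibre markers, all detected, 9 were higher and 3 lower with si mH2A1.1 than with si mH2A1.2, and their summed level was 27181 to 40499 CPM in the controls, 26413 to 31661 CPM after si mH2A1.1 and 22139 to 28899 CPM after si mH2A1.2. Myh1, a fast myosin heavy chain, was at 507 ± 212, 1214 ± 237 and 150 ± 45.1 CPM (SD, n = 3), in the same order. Among the 3 lower were Myh7, at 187 ± 72.8, 63.9 ± 39.3 and 210 ± 26.4 CPM, and Mymx, at 74.2 ± 17.5, 41.9 ± 6.49 and 70.2 ± 9.88 CPM. With si mH2A1.1 against si Ctrl, 2 of the 26 were higher and 3 lower (median log2 fold change -0.16), where 6.18% and 4.93% of all genes were called. With si mH2A1.2 against si Ctrl, 0 were higher and 4 lower (median -0.49), where 1.37% and 0.982% of all genes were called. Of 14 markers of cycling cells, 12 were higher with si mH2A1.1 than with si mH2A1.2, with sums of 444 to 654, 588 to 1232 and 354 to 491 CPM.

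Interferon-stimulated genes stood furthest apart. All 15 were higher with si mH2A1.1 than with si mH2A1.2 (median 3.36), and 14 were higher than with si Ctrl, with sums of 57.9 to 66.3 CPM in the controls, 214 to 803 CPM after si mH2A1.1 and 53.0 to 75.3 CPM after si mH2A1.2. Of 11 markers of reserve and satellite cells, 9 were tested, 3 were higher and 4 lower, with sums of 495 to 673, 707 to 960 and 499 to 941 CPM and with Calcr at 0 counts. Of 10 adipocyte markers, 5 were tested and 1, Lpl, was higher, with sums of 58.9 to 66.8, 79.5 to 103 and 37.4 to 46.9 CPM, while Adipoq, Lep, Cidea, Cidec and Ucp1 had at most 3 counts. Of 8 osteoblast and chondrocyte markers, 4 were tested and 1, Runx2, was lower, with sums of 81.9 to 112, 71.9 to 78.6 and 82.7 to 114 CPM. The part of any of these in the values of the oxidative phosphorylation genes was not tested.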

How the data were processed

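RNA from 9 samples was sequenced as single 50 bp reads. According to the study's methods, the authors quantified reads with Salmon against GRCm38 and summed them per gene, and the deposited values are expected counts per gene, not normalised. A second deposited table of normalised values was not used. The strand setting is not given in the sources used here.

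Counts were used as deposited, as whole numbers. Genes passing filterByExpr (19545 of 52780) were fitted in edgeR 4.0.16 (R 4.3.3, TMM, legacy quasi-likelihood test) with all 9 samples in 1 model and 3 contrasts. P-values were adjusted by Benjamini-Hochberg over all genes tested, and genes were called at an adjusted p below 0.05. CPM used TMM library sizes, and TPM used the union of a gene's exons in GENCODE M21. The fit was tested on simulated data. Pseudogene copies were found by shared windows of 50 bases. Tables and plots were made with Python 3.11.15, pandas 2.3.3 and matplotlib 3.10.9.

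The members and lists were chosen with earlier results of these data known. Named genes were the mitochondrially encoded members, the 10 called nuclear members of largest change per comparison, genes of subunit families with alternative forms, the nuclear gene of highest TPM per complex, the complex II subunits, and up to 3 genes per other list. Nuclear members with most of their counts on pseudogene copies were named as well. Same-numbered samples of si Ctrl and si mH2A1.2 deviated together (r = 0.331, 0.291 and 0.196 over all genes), so these numbers were taken as pairs. The numbers come from the sample titles. Alternatives were DESeq2 1.42.0, limma-voom (limma 3.58.1), other scalings, filters and thresholds, the replicate block, omission of each sample and, added after the data were seen, counts of pseudogene copies.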

Additional observations from a re-analysis of the deposited data

How the results depend on the processing

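Calls against si Ctrl depended on the settings more than the direction of the medians did. With si mH2A1.1, the 4 members called against si Ctrl became 15 with DESeq2 (13 higher and 2 lower), 17 at an adjusted p below 0.1, and 0 at an adjusted p below 0.01 with a log2 change of 0.8 or more in either direction. Of all genes, DESeq2 called 9.07% higher and 7.67% lower in this comparison. The share of all genes at an adjusted p below 0.1 was not counted. With si mH2A1.2, the 2 members called became 4 with DESeq2, 1 with the samples of that comparison alone and 0 at the stricter threshold. Here DESeq2 called 3.28% of all genes higher and 2.62% lower. Between the knockdowns, 43 became 1 at the stricter threshold. Omitting each sample in turn gave 0 to 10, 0 to 2 and 16 to 48 members called. With the replicate number as a block, 10 members were called for si mH2A1.1 against si Ctrl, 2 for si mH2A1.2 against si Ctrl and 54 between the knockdowns. In the same order, the block called 11.1%, 2.90% and 15.4% of all genes higher and 9.70%, 2.25% and 13.6% lower. Only si Ctrl and si mH2A1.2, with the highest correlations, were taken as pairs, and the block changed neither call there. The main fit held no term for the replicate number. Same-numbered samples correlated at 0.087, 0.084 and 0.098 for si mH2A1.1 with the controls, and at 0.092, 0.102 and 0.116 between the knockdowns. Samples of different numbers had negative correlations in both of these comparisons. The median of the nuclear genes kept its sign in each omission of a sample, at 0.10 to 0.22, -0.33 to -0.16 and 0.32 to 0.48 (log2) in the 3 comparisons. That of the mitochondrially encoded genes ranged from 0.0011 (without si Ctrl replicate 2) to 0.31, from 0.0055 (without si mH2A1.2 replicate 1) to 0.27, and from 0.087 to 0.29. With pseudogene copies counted, an alternative chosen after seeing the data, the ratio of mitochondrially to nuclear-encoded counts was 5.53 with si Ctrl and 5.69 with si mH2A1.1, in place of 4.81 and 4.76. The cause of these shifts was not tested, except that the stricter threshold and the added counts act by construction. No called value changed sign. Values that were not called did, among them mt-Atp6 and mt-Co2 with pseudogene copies counted, and the ratio of si mH2A1.1 relative to si Ctrl went from 0.988 to 1.03.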
